A study of Homo sapiens with 3 samples.

Results

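Shared SMAD2/3 binding sites that stood higher in the late ranking than in the early one are described here. SMAD2/3 chromatin immunoprecipitation with sequencing (ChIP-seq) was carried out in MCF10A MII cells, an H-Ras-transformed line of human breast epithelium. One library was made from cells 16 h after 5 ng/ml TGFβ3 and 1 library from cells 1.5 h after the same dose. Both groups share the H-Ras transformation and a medium with serum, epidermal growth factor, cholera toxin, hydrocortisone and insulin. The third sample, input DNA of untreated cells, was not analysed here, so no comparison with unstimulated binding is made. A peak of the 16 h list and a peak of the 1.5 h list formed a pair when they overlapped by at least 1 bp and each was the largest overlap of the other. The 3280 peaks at 16 h and 2206 peaks at 1.5 h gave 494 pairs. Within each list the pairs were ranked by the deposited peak score, so that the highest score had rank 494. The 252 pairs with a higher rank at 16 h than at 1.5 h (51.0% of pairs) are the late-ranking sites, 241 pairs ranked higher at 1.5 h, and 1 pair had equal ranks. A share close to an even split is what ranking the same pairs in both lists brings about, and nothing is read from it.

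TGFβ binds type I and type II serine/threonine kinase receptors at the cell surface, and the activated type I receptor phosphorylates SMAD2 and SMAD3. These form complexes with SMAD4, enter the nucleus and act on enhancers and promoters together with other transcription factors, because SMAD proteins alone bind short DNA elements weakly. Nuclear SMAD2/3 is known to peak early after TGFβ addition and to decline while feedback inhibitors of the pathway accumulate. In breast epithelial cells TGFβ is known to restrain growth and to drive epithelial-mesenchymal transition, and active H-Ras favours the invasive side of this response. The antibody recognises both SMAD2 and SMAD3, so the peaks do not say which of them was bound. Positions below are 1-based on hg19, and no gene is assigned to a site, because no annotation of that build was used here.

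The late-ranking sites held most of the strongest 16 h peaks and a good number of weak 1.5 h peaks. The sites were chosen by these scores, through their ranks, so the values are a description. The 16 h scores of the 252 sites ran from 50.9 to 1650 with a median of 134 (quartiles 87.0 and 227), and their 1.5 h scores ran from 50.2 to 1250 with a median of 74.1 (quartiles 59.4 and 113). In the 241 sites ranking higher at 1.5 h the median was 75.1 at 16 h and 133 at 1.5 h. Of the 100 highest-scoring peaks of the whole 16 h list, 72 belonged to late-ranking sites, 15 to sites ranking higher at 1.5 h and 12 to peaks found only at 16 h. Of the 100 highest-scoring peaks at 1.5 h, 25 belonged to late-ranking sites, 61 to sites ranking higher at 1.5 h and 14 to peaks found only at 1.5 h. Each time is represented by 1 library, so there was no replicate spread to test against, and scores also depend on sequencing depth, which the lists do not give.

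Some of these sites scored high at both times, and others were near the bottom of the 1.5 h list and ranked higher at 16 h. The lowest score deposited was 50 at 16 h and 50.02 at 1.5 h. A score of 100 or more was reached by 162 late-ranking sites at 16 h (46.0% of all pairs reached it) and by 78 at 1.5 h (49.8% of all pairs), and each of those 78 also reached it at 16 h. A score of 200 or more at both times was found in 26 late-ranking sites (10.3%), close to the 8.50% of all pairs. At the other end, 66 late-ranking sites scored under 60 at 1.5 h (26.2%, against 15.4% of all pairs). Of these, 15 reached 100 or more at 16 h (3.04% of all pairs did so), of which 4 reached 200 or more (0.810% of all pairs). Most of the late-ranking sites, 239 of 252, also had the numerically higher score at 16 h (48.6% of all pairs had it). The other 13 scored lower at 16 h and yet held a higher rank there.

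**Figure D1:**
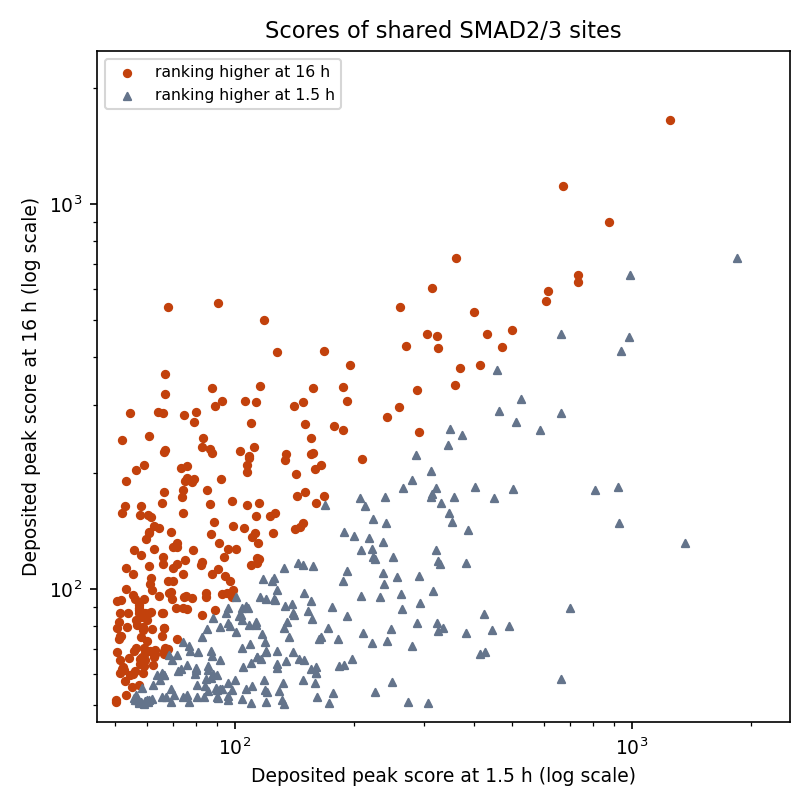
Deposited peak scores of shared sites at 16 h (vertical) and 1.5 h (horizontal), both on log scales, 1 point per site. Late-ranking sites (circles) spread from the lower left, near a score of 50 at both times, to the upper right, where the highest site scored 1650 at 16 h and 1250 at 1.5 h.

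The rise in rank ranged from 1 to 412 places, with a median of 101 (quartiles 45.6 and 188). A gain of at least 50 places was seen in 182 sites (36.8% of all pairs) and of at least 100 in 130 (26.3% of all pairs). It was at least 200 in 58 sites (11.7% of all pairs) and at least 300 in 15 (3.04% of all pairs). Ranks are bounded, so a site low in the 1.5 h ranking had more room to gain than to lose. Among the 98 pairs of lowest 1.5 h score (50.2 to 62.3), 82 were late-ranking, with a median gain of 150 places among those 82. Among the 99 pairs of highest 1.5 h score (222 to 1839), 25 were late-ranking, and their median gain was 11 places.

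**Figure D2:**
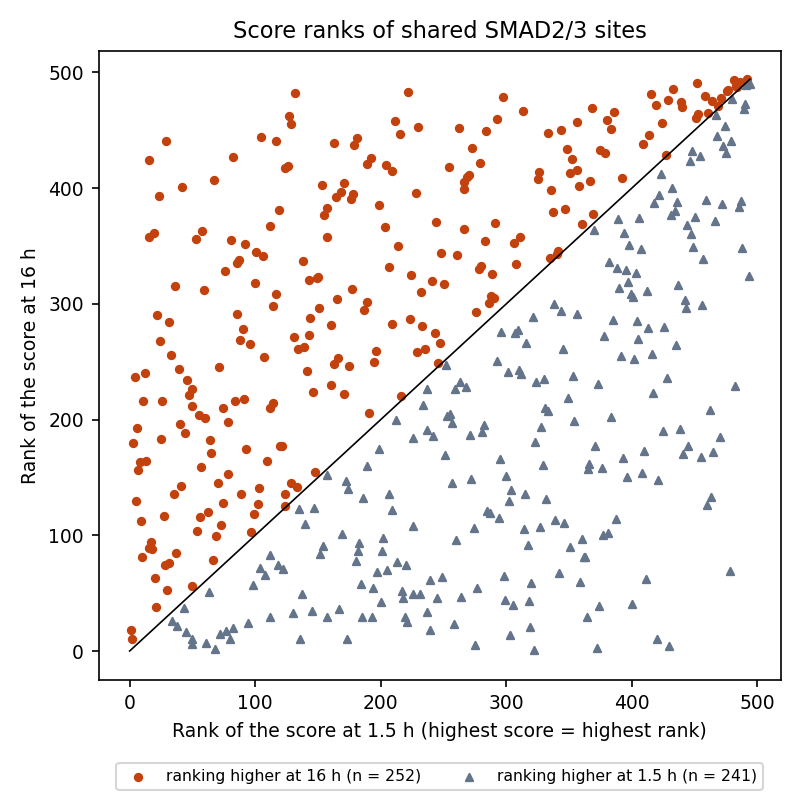
Rank of each shared site at 16 h (vertical) against its rank at 1.5 h (horizontal), the highest score having the highest rank. The 252 late-ranking sites (circles) lie above the line of equal rank because of how they were chosen, far above it on the left and close to it at the upper right.

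The largest gain was at chr9:21684866-21685396. This site scored 286 at 16 h and 54.6 at 1.5 h, which took it to rank 441 at 16 h, against rank 29 at 1.5 h. Its 16 h peak was 531 bp wide and its 1.5 h peak 73 bp wide, and no peak found at a single time lay within 500 kb of it. That distance does not take in other shared sites. The 1.5 h list held this site just above its score limit.

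A gain of 409 places was found at chr5:33049961-33050481, which scored 243 at 16 h and 52.2 at 1.5 h. The third in order, chr5:157030443-157030811, scored 191 at 16 h and 53.3 at 1.5 h, a gain of 370. The narrowest late peak of the first 10 was at chr20:45443711-45443871, 161 bp at 16 h and 108 bp at 1.5 h, with scores of 203 and 56.4. These sites were all barely above the limit of the 1.5 h list and among the higher scores at 16 h.

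The highest 16 h score among the 10 largest gains belonged to chr9:107825913-107826568. It scored 541 at 16 h, rank 482, and 67.9 at 1.5 h, rank 132. The remaining sites of the 10 were chr4:83151547-83151860 (gain 344.5), chr12:66042874-66043144 (gain 343), chr6:30710480-30710783 (gain 342.5), chr13:36497554-36497933 (gain 340) and chr1:230677820-230678261 (gain 339). Across the 10, scores ran from 157 to 541 at 16 h and from 52.2 to 67.9 at 1.5 h. Choosing the largest gains sets these ranges apart, so nothing is read from the gap. Peak widths ran from 161 to 656 bp at 16 h and from 73 to 178 bp at 1.5 h. All 10 were wider at 16 h, and in 9 of them the 1.5 h peak lay wholly inside the 16 h peak.

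**Figure D3:**
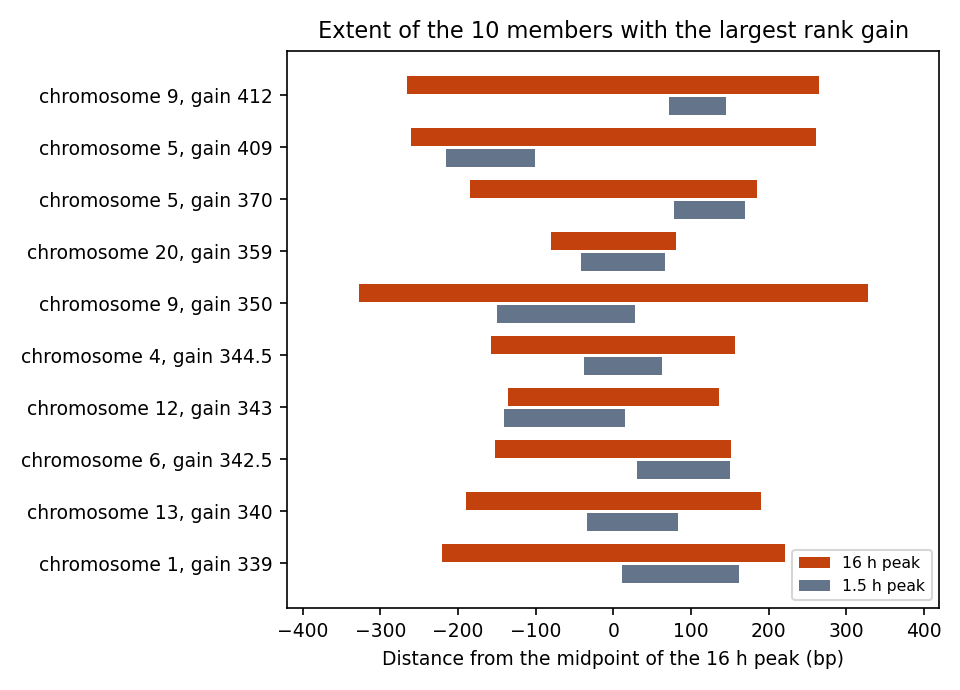
Extent of the 16 h peak (upper bar) and the 1.5 h peak (lower bar) at the 10 sites with the largest rank gain, as distance in bp from the midpoint of the 16 h peak. In 9 of the 10 sites the 1.5 h bar falls inside the 16 h bar, often to one side of its centre.

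A further 5 sites gained at least 300 places and are named here after their values were seen. The site at chr17:7744700-7745184 scored 363 at 16 h and 66.6 at 1.5 h and had 3 peaks found only at 16 h within 10 kb. Scores at chr3:4872829-4873364 were 321 at 16 h and 66.8 at 1.5 h. On chromosome 10, chr10:102046454-102046873 scored 286 at 16 h and 66.0 at 1.5 h, and chr10:17270345-17270727 scored 156 and 57.6. The last, chr20:4152738-4153151, scored 165 at 16 h and 58.1 at 1.5 h.

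The late-ranking sites with the highest 16 h scores were of another kind, since most were near the top at both times. The first, chr9:136739050-136739902, held rank 494 at 16 h and rank 492 at 1.5 h. Next came chr9:72735636-72736261 with rank 493 at 16 h and 481 at 1.5 h, and chr3:170075049-170075629 with rank 492 at 16 h and 486 at 1.5 h. Ranks at chr4:166501279-166502012 were 488 at 16 h and 483 at 1.5 h, and at chr18:73336703-73337245 they were 487 and 484. The sites chr17:76588399-76588907 and chr19:45958861-45959617 each gained 8 places. Their scores were 594 and 561 at 16 h, and 616 and 607 at 1.5 h.

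Chromosome 5 carried 3 of the 10 highest late scores, and these had larger rank gains. The site at chr5:136806123-136806786 gained 39 places and had scores of 724 at 16 h and 361 at 1.5 h. A gain of 53 places was found at chr5:17181039-17181874, with scores of 606 at 16 h and 313 at 1.5 h. The third, chr5:64331147-64331808, scored 553 at 16 h, rank 483, and 90.9 at 1.5 h, rank 222, a gain of 261 places. Its 16 h peak spanned 662 bp and its 1.5 h peak 106 bp. No site was among the 10 highest by both gain and 16 h score. Of the 10 highest late scores, 5 were wider at 16 h and 6 were numerically higher at 16 h.

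Sites on either side of the rule differed little. Just inside it were chr4:169408646-169408805 with a gain of 1 place and scores of 67.6 at 16 h and 66.5 at 1.5 h, chr1:59395368-59395762 with a gain of 2 and scores of 426 and 470, and chr22:26867452-26867808 with a gain of 2 and scores of 255 and 291. The first of the late scores, chr9:136739050-136739902, and chr18:73336703-73337245 were the other members of the 5 smallest gains, at 2 and 3 places. The gain of 3 was shared by chr10:5627045-5627344 and chr17:79303332-79303654, which had lower 16 h scores. Just outside lay chr3:72387562-72388628 with a rank difference of -2 and scores of 654 at 16 h and 989 at 1.5 h, and chr3:48632790-48633496 with -3. The highest 1.5 h peak of all, at chr20:56592339-56593274 in the 16 h list, had rank 490 at 16 h and 494 at 1.5 h (-4). With the top rank at 1.5 h, it could not have ranked higher at 16 h. The other two were chr11:129013172-129013597 (-4) and chr20:44622227-44622454 (-5). The single pair of equal rank was chr17:1014529-1014782, which scored 62.6 at 16 h and 61.8 at 1.5 h.

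Late-ranking sites were mostly broader at 16 h. Width comes from the same peak calls as the score, so it is described and not tested. The median width of the 252 sites was 287 bp at 16 h (quartiles 187 and 441) and 173 bp at 1.5 h (quartiles 116 and 269), with a median difference of 75 bp within a site. In the 241 sites ranking higher at 1.5 h the medians were 174 bp at 16 h and 259 bp at 1.5 h, with a median difference of -68 bp. The 16 h peak was the wider one in 209 of 252 late-ranking sites (82.9%, 95% exact Clopper-Pearson interval 77.7 to 87.4%), against 46 of 241 sites ranking higher at 1.5 h and 51.8% of all pairs. Intervals here and below cover counting error only. Among the rest, 38 late-ranking sites were narrower at 16 h (47.2% of all pairs were) and 5 had the same width (1.01% of all pairs). The largest difference in this direction, -401 bp, was at chr9:136739050-136739902, the site of highest late score, which was 853 bp wide at 16 h and 1254 bp at 1.5 h.

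Nesting depends on which peak is wider, and a wider peak can overlap more peaks of the other list. The counts of both thus partly restate the width difference, and they were not tested. In 103 late-ranking sites (40.9%, 34.7 to 47.2%) the 1.5 h peak lay inside a longer 16 h peak. This held for 8 of the sites ranking higher at 1.5 h (3.32%, 1.44 to 6.44%) and 22.7% of all pairs. The reverse nesting, a 16 h peak inside the 1.5 h peak, mirrored this. It was found at 11 late-ranking sites (4.37%), 84 sites ranking higher at 1.5 h (34.9%) and 19.2% of all pairs. In 134 late-ranking sites (53.2%, against 57.3% of all pairs) the peaks overlapped only in part. A 16 h peak that overlapped 2 or more 1.5 h peaks by at least 1 bp was found at 51 late-ranking sites (20.2%, 15.5 to 25.7%). The count was 13 for sites ranking higher at 1.5 h (5.39%, 2.90 to 9.05%), with 13.0% of all pairs. Here too the reverse was seen for a 1.5 h peak that overlapped 2 or more 16 h peaks. There were 11 late-ranking sites (4.37%) and 39 sites ranking higher at 1.5 h (16.2%), with 10.1% of all pairs. The late peak at chr20:56268030-56268687 overlapped 3 peaks of the 1.5 h list. When peaks of a list under 500 bp apart were merged before pairing, 229 of 456 pairs ranked higher at 16 h, and 65.1% of these were wider at 16 h.

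Peak midpoints lay close together at both times. The midpoints of the 2 peaks of a late-ranking site lay a median of 60.3 bp apart (quartiles 23.5 and 98.6), and those of the sites ranking higher at 1.5 h lay 58.5 bp apart (quartiles 31 and 98). Midpoints were within 50 bp at 122 late-ranking sites (48.4%, against 46.2% of all pairs). They were more than 200 bp apart at 6 (2.38%, against 2.83%). The 16 h midpoint lay at the higher coordinate in 133 late-ranking sites (52.8%, against 52.0% of all pairs). It lay at the lower coordinate in 113 (44.8%, against 46.6%) and at the same base in 6 (2.38%, against 1.42%). These shares lay near those of all pairs. The overlap that the rule demands limits this distance.

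Some late-ranking sites had nearly the same edges at both times. Both edges agreed within 10 bp in 13 of 252 late-ranking sites (5.16%, 2.78 to 8.66%), in 4 of 241 sites ranking higher at 1.5 h (1.66%, 0.454 to 4.19%) and in 3.44% of all pairs. Both edges were identical in 4 pairs, and all 4 were late-ranking sites. These were chr1:121484124-121485434 (1311 bp, scores of 334 at 16 h and 188 at 1.5 h), chr6:58777075-58777545, and chr7:61968935-61969085 with chr7:61969216-61969562 beside it. As background not computed from the files, these positions are close to centromeres, where satellite repeats are a known source of piled-up reads in ChIP-seq. No region was filtered out, and whether these peaks mark SMAD2/3 binding was not tested.

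The only run of 3 or more late-ranking sites within 10 kb of each other was of this kind. It covered chr6:58776687-58779358 with 4 sites in 2672 bp, separated by gaps of 10 to 81 bp at 16 h and 3 to 80 bp at 1.5 h. Their scores were 108, 199, 225 and 524 at 16 h, and 94.4, 143, 134 and 402 at 1.5 h, in order along the chromosome. The 4 sites gained 48, 62, 88 and 22 places. The widest late-ranking peak, chr21:9825438-9827582, shared its start with its 1.5 h partner, which ended 942 bp earlier. It was 2145 bp wide at 16 h and 1203 bp at 1.5 h, and scored 501 at 16 h and 118 at 1.5 h. Without the 17 pairs of matching edges, 240 of 477 pairs ranked higher at 16 h and 85.8% of those were wider at 16 h.

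Late-ranking sites occurred on each of the 23 chromosomes that held pairs, from 2 on chromosome X to 24 on chromosome 1. The share of pairs that ranked higher at 16 h was 68.0% on chromosome 20 (17 of 25, 46.5 to 85.1%), 72.7% on chromosome 4 (8 of 11, 39.0 to 94.0%) and 57.6% on chromosome 6 (19 of 33, 39.2 to 74.5%). Low shares were found on chromosome 3 (5 of 18, 27.8%, 9.69 to 53.5%) and chromosome 13 (3 of 11, 27.3%, 6.02 to 61.0%). The interval of each of the 23 chromosomes included 51.0%, the share over all pairs, so with these numbers no chromosome stood apart beyond counting error.

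**Figure D4:**
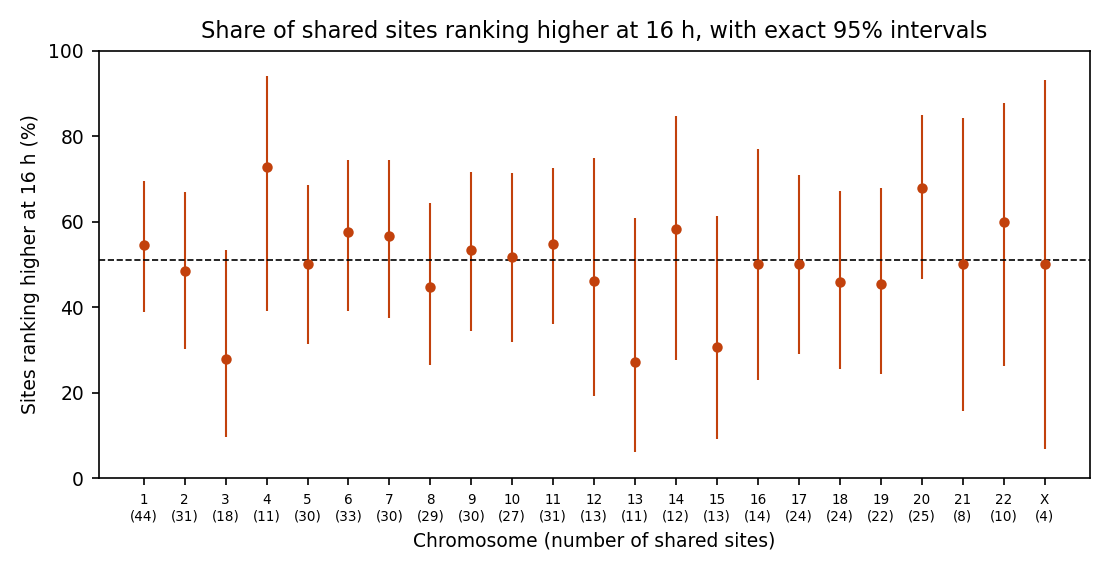
Share of shared sites that ranked higher at 16 h on each chromosome (points) with 95% exact intervals (lines), and the number of shared sites under each chromosome. The dashed line is the share over all pairs, 51.0%, and each of the 23 intervals crosses it.

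On chromosome 20 some late-ranking sites lay near each other, with sites of the other class among them. On the long arm, chr20:56268030-56268687 scored 469 at 16 h and 500 at 1.5 h, a gain of 7 places, and had 4 peaks found only at 1.5 h within 10 kb. Its neighbour chr20:56273241-56273612 scored 115 at 16 h and 82.5 at 1.5 h. Further along, chr20:56323644-56324142 scored 414 at 16 h and 168 at 1.5 h, a gain of 101, and chr20:56347640-56348041 scored 264 at 16 h and 178 at 1.5 h, a gain of 58. Between the first 2 of these lay chr20:56270072-56270472, which ranked higher at 1.5 h, with scores of 96.8 at 16 h and 262 at 1.5 h and a rank difference of -159. The directions within this stretch were thus mixed.

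A second stretch of chromosome 20 held 3 late-ranking sites with larger gains and 1 site ranking higher at 1.5 h. Scores at chr20:49944068-49944371 were 92.9 at 16 h and 50.5 at 1.5 h, a gain of 233. The strongest at 16 h, chr20:49951882-49952472, scored 336 at 16 h and 116 at 1.5 h, a gain of 167.5. At chr20:49982632-49983072 the scores were 233 at 16 h and 112 at 1.5 h, a gain of 143. The nearest peaks found only at 16 h lay 888, 896 and 927 kb away, so no late-only peak stood beside them. Their nearest peaks found only at 1.5 h were close, at 3.755, 3.555 and 0.067 kb. The site of the other class, chr20:49983081-49983313, adjoined the third and scored 65.4 at 16 h and 149 at 1.5 h, a rank difference of -235.

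On chromosome 5, the first 50 Mb was looked at separately. There 6 of 7 pairs ranked higher at 16 h (85.7%, 42.1 to 99.6%), against 9 of 23 on the rest of the chromosome (39.1%, 19.7 to 61.5%). Both intervals include the 51.0% of all pairs, and the segment was singled out after the peak numbers were seen. It held 173 peaks of all kinds at 16 h and 17 at 1.5 h, while the rest of the chromosome held 192 and 148. The part of this surplus of 16 h peaks in the ranks was not tested. Of the 6 sites, chr5:17181039-17181874 and chr5:33049961-33050481 were named above. The others were chr5:912469-912864 (gain 223), chr5:1328350-1328503 (gain 235), chr5:1950726-1951355 (gain 30) and chr5:6766777-6766982 (gain 188). The strongest of these, chr5:1950726-1951355, scored 422 at 16 h and 324 at 1.5 h.

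Peaks found at a single time were not ranked by the rule, but a peak counted as such only where it overlapped no peak of the other list. Their number around the sites thus depends on the same peak calls and widths, and is not a separate readout. A peak found only at 16 h lay within 10 kb of 61 late-ranking sites (24.2%, 19.1 to 30.0%), against 38 sites ranking higher at 1.5 h (15.8%, 11.4 to 21.0%) and 20.0% of all pairs. Within 100 kb the numbers were 125 (49.6%, 43.3 to 55.9%) against 91 (37.8%, 31.6 to 44.2%), and 43.7% of all pairs. Peaks found only at 1.5 h ran the other way. They lay within 10 kb of 68 late-ranking sites (27.0%, 21.6 to 32.9%), against 93 sites ranking higher at 1.5 h (38.6%, 32.4 to 45.1%) and 32.6% of all pairs. Within 100 kb the numbers were 119 (47.2%, 40.9 to 53.6%) against 126 (52.3%, 45.8 to 58.7%), and 49.6% of all pairs. The intervals of the classes overlapped in each of these comparisons, and the differences were not tested. With peaks of a list under 500 bp apart merged, a 16 h only peak lay within 10 kb of 10.5% of late-ranking sites against 9.29% of sites ranking higher at 1.5 h, and a 1.5 h only peak within 10 kb of 9.61% against 12.8%.

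Many of the close neighbours lay so near that they may be pieces of the same site. Within 500 bp, 34 late-ranking sites (13.5%, 9.53 to 18.3%) had a peak found only at 16 h. The same held for 13 sites ranking higher at 1.5 h (5.39%, 2.90 to 9.05%) and 9.51% of all pairs. The intervals of the classes did not overlap. Adjoining sites could share such a peak, so these counts are not independent, and the difference was not tested. A peak found only at 1.5 h lay within 500 bp of 50 late-ranking sites (19.8%, 15.1 to 25.3%), against 67 sites ranking higher at 1.5 h (27.8%, 22.2 to 33.9%) and 23.7% of all pairs. Between 500 bp and 10 kb the counts were 32 (12.7%, 8.85 to 17.5%) against 26 (10.8%, 7.17 to 15.4%), with 11.7% of all pairs. For peaks found only at 1.5 h, the counts between 500 bp and 10 kb were 27 late-ranking sites (10.7%, 7.18 to 15.2%) against 43 (17.8%, 13.2 to 23.3%), with 14.2% of all pairs. Between 500 bp and 10 kb the intervals of the classes thus overlapped for both kinds of neighbour. Within 500 bp the order of the classes was reversed when overlapping peaks were counted with the time-only ones. Then 2 or more 16 h peaks were found at 44 late-ranking sites (17.5%) against 51 (21.2%), with 19.2% of all pairs. For 2 or more 1.5 h peaks the counts were 88 (34.9%) against 74 (30.7%), with 32.8% of all pairs.

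**Figure D5:**
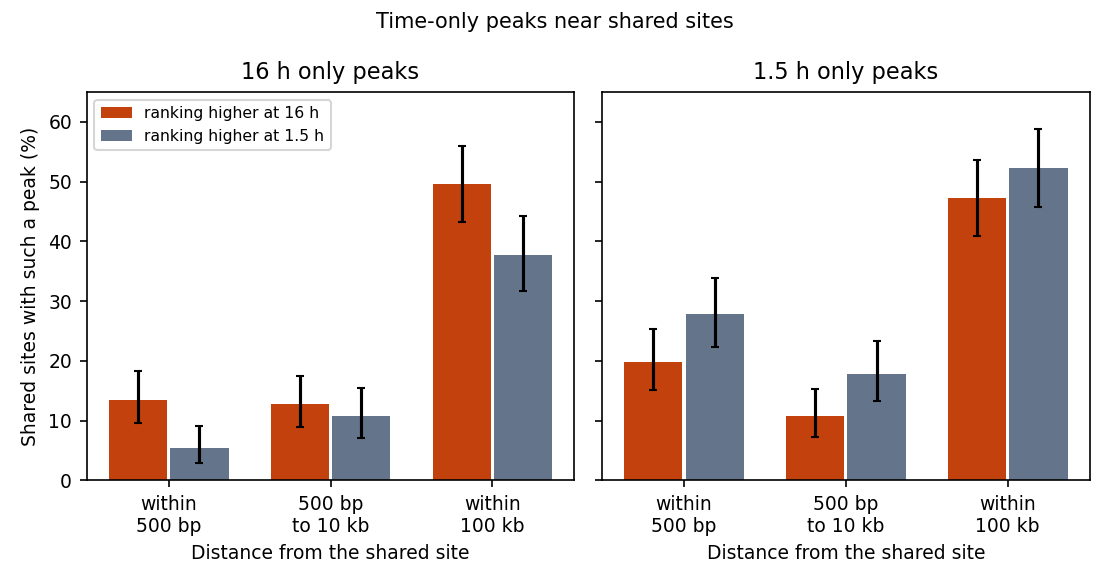
Share of shared sites with at least 1 peak found only at 16 h (left panel) or only at 1.5 h (right panel) within 500 bp, between 500 bp and 10 kb, or within 100 kb, with 95% exact intervals. The intervals are apart only for 16 h only peaks within 500 bp, at 13.5% of late-ranking sites against 5.39% of sites ranking higher at 1.5 h. Counting sites with 2 or more 16 h peaks, overlapping or within 500 bp, reversed the order. The shares were then 17.5% against 21.2%. Adjoining sites could share a neighbour, so the counts are not independent.

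Single sites showed how different the surroundings could be. The late-ranking site with most 16 h only neighbours, chr17:48255947-48256143, had 7 of them within 10 kb and its nearest 1.5 h only peak 371 kb away, although its own scores were low, 68.5 at 16 h and 50.6 at 1.5 h. At chr6:30710480-30710783, which gained 342.5 places, 3 peaks found only at 16 h lay within 10 kb. By contrast, chr7:90208750-90208953 had 4 peaks found only at 1.5 h within 10 kb and still gained 206 places, with scores of 115 at 16 h and 60.9 at 1.5 h. The site farthest from any peak found at a single time was chr16:68699487-68699633, with the nearest 16 h only peak 2148 kb away and the nearest 1.5 h only peak 3007 kb away. It scored 79.0 at 16 h and 66.3 at 1.5 h. It was not alone, since the shared site chr16:68699641-68699738 directly adjoined it and ranked higher at 1.5 h. No peak found at a single time lay within 100 kb of 64 late-ranking sites (25.4%, 20.1 to 31.2%). This compares with 74 sites ranking higher at 1.5 h (30.7%, 24.9 to 36.9%) and 28.1% of all pairs.

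Neighbouring shared sites differed in rank in the same direction in some cases and in opposite directions in others, with neither clearly more common. Of 59 successive pairs of sites at most 10 kb apart, 16 had both sites ranking higher at 16 h, 17 had both ranking higher at 1.5 h, and 26 had 1 of each or a tie. The direction was the same in 55.9% (42.4 to 68.8%) of these, and in 54 of 93 (58.1%, 47.4 to 68.2%) at distances up to 100 kb. Both intervals include an even split. A chain of sites shares members between successive pairs, so these counts are not independent.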

How the data were processed

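One peak list per ChIP library was deposited by the authors, as BED intervals with a score per peak. Per the submitters' processing notes, Bowtie 1.1.0, Picard, MACS 1.4.2 and the build hg19 were used; their settings, and whether the input served as control, are not given in these sources. The deposited scores start at 50, and what they measure is not stated, so they served to rank peaks within a list. Depth is unknown from the lists. Grouping followed the treatment label, with 1 library per time.

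Starts were converted to 1-based positions. Pairs were best mutual overlaps in bp; equal overlaps went to the higher score, and tied scores had average ranks. Distances to peaks found at a single time were measured from the outer limits of both peaks. Pairing was tested on simulated lists. Sites named were the 10 largest gains, the 10 highest 16 h scores, 5 sites on either side of the rule, and runs of at least 3; sites named outside this rule were chosen after their values were seen. The sites and the questions were chosen with earlier results of these data known. Motif content and nearest genes were planned, but need a sequence and annotation of hg19; neither was used here. Python 3.11.15, numpy 2.4.6, pandas 2.3.3, scipy 1.17.1 and matplotlib 3.10.9 were used.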

Additional observations from a re-analysis of the deposited data

How the results depend on the processing

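The number of late-ranking sites, 252, was 136 when each peak had to be covered by 50% or more and 77 with a score of at least 100, which left 282 and 149 pairs. With ranks among all peaks of each list it was 307, since peaks found at a single time then count in the ranking. Of the late-ranking sites still paired, 130 of 136, 73 of 78 and 252 of 252 ranked higher at 16 h under these 3 settings. The median gain, 20.4% of the ranking, was 15.8% with the 50% overlap and 30.0% with a gain of at least 50 places. The median width difference, 75 bp, was 52 bp with the 50% overlap, 58 bp with ranks among all peaks, 98 bp with the gain of at least 50 places and 56 bp with merged neighbours. The share wider at 16 h, 82.9%, was 76.5%, 89.6% and 65.1% under the last 3 of these. The 1.5 h peak lay inside the 16 h peak in 48.9% of sites with the gain of at least 50 places and in 33.6% with merged neighbours. Midpoints lay 32.3 bp apart with the 50% overlap and 75.5 bp with merged neighbours. With the 50% overlap, 1 chromosome had an interval that left out the overall share. A 16 h only peak lay within 10 kb of 18.9% of late-ranking sites with a score of at least 60, 7.79% with at least 100 and 10.5% with merged neighbours, and between 500 bp and 10 kb of 6.49% with at least 100. A 1.5 h only peak lay within 10 kb of 33.8% with the 50% overlap, 11.7% with a score of at least 100 and 9.61% with merged neighbours. Score limits and merging remove neighbours by construction; the cause of the other changes was not tested. The median width difference stayed positive under the 12 alternatives. For neighbours between 500 bp and 10 kb away, the order of the classes did change. With the 50% overlap, a 16 h only peak lay there at 11.8% of late-ranking sites against 12.4% of sites ranking higher at 1.5 h. With a score of at least 100, a 1.5 h only peak lay there at 7.79% against 5.56%. The intervals of the classes overlapped in both cases. The alternatives without the first 50 Mb of chromosome 5, without the run on chromosome 6, without pairs of matching edges and with merged neighbours were chosen after seeing the data. No paired analysis was possible because there is a single library for each time, which also means that leaving one out gives no comparison.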
